A study of Mus musculus with 160 samples.

Results

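The genes described here encode the proteasome, and they were taken from a table of RNA levels in single stromal cells of mouse bone marrow. Members were the rows whose gene name begins with Psma to Psmg and a number, which gave 49 of the 22866 distinct gene names in the table. One of them, Psmc3ip, is named for a protein that binds a proteasome ATPase but acts in meiotic recombination, so 48 members remained: 16 subunits of the constitutive core, 3 of the immunoproteasome, 17 of the regulatory cap, 4 activators, 1 inhibitor and 7 assembly chaperones. The cells came from old C57BL/6J mice (78 cells, 24 months by the sample labels and 2 years by the protocol) and from young C57BL/6J mice (82 cells, 9 weeks by the labels and 10 weeks by the protocol). The sort kept cells positive for the leptin receptor and for CD140a, the platelet-derived growth factor receptor alpha, and removed cells with the blood, red cell and endothelial marks CD45, Ter119 and CD31. Cells of both ages had the same strain, tissue, sort and microfluidic capture (Fluidigm C1), and no allele or treatment is named for either. No animal is named for a cell, and the cells of an age were therefore treated as 1 sample. Differences between old and young cells have no replicate check and were not tested. The range after each percentage of cells is its 95% interval by the exact Clopper-Pearson method, which covers counting error only.

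The proteasome is the protease that degrades proteins tagged with ubiquitin. Its barrel-shaped core is built of alpha rings, which gate the entrance, and beta rings, whose Psmb5, Psmb6 and Psmb7 subunits cut the substrate. A regulatory cap of ATPases (Psmc) and other subunits (Psmd) binds ubiquitin chains, unfolds the protein and feeds it into the core. Under interferon, cells build Psmb8, Psmb9 and Psmb10 into new cores in place of Psmb5, Psmb6 and Psmb7, and this immunoproteasome makes many of the peptides shown on class I molecules. Other activators (Psme) can replace the cap, and dedicated chaperones (Psmg and some Psmd proteins) assemble the particle.

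Values are FPKM, fragments scaled to transcript length and to the mapped fragments of the cell, so levels can be compared between genes. Between cells the scale was uneven. The FPKM of all named genes summed to between 22242.5 and 7384320 in a cell, with a median of 74511. In 9 old and 13 young cells the sum was over 3 times the median. Means, highest values and medians of listing cells carry this limit. A gene is called listed in a cell at 1 FPKM or more. Read numbers are unknown. A value of 0 need not mean absent RNA, since Gapdh, which cells use in glycolysis, was at 0 in 91 of 160 cells. Old cells had a median of 1160 genes listed and young cells 1114.5. The main measure is the difference of mean log2(FPKM + 1), old minus young, which weighs each cell alike and understates the change of genes with low values. Members whose mean reached 1 FPKM in old or in young cells are called measured (41 of 48), and a size of 0.5 on this log2 scale was used for counts. Of 7196 measured genes, 48.9% had a higher and 51.1% a lower mean log2 in old cells. By at least 0.5, 3.89% were higher in old cells and 4.88% were lower. Xist, the RNA of the inactive X chromosome, was listed in 54 of 78 old cells and in 0 of 82 young cells, and each age had its own 96 capture wells, so age, sex and capture cannot be told apart in any difference below.

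The sorted cells carried their stromal markers. Cxcl12 was listed in 77 of 78 old and 82 of 82 young cells and Lepr in 71 and 78, whereas Pdgfra, which encodes CD140a, was listed in 30 and 28. Blood and immune cells are rich in immunoproteasome RNA. Of 12 rows of blood and immune markers, 7 were listed in no cell, among them Ptprc (CD45), Laptm5 and Coro1a, and the other 5 in at most 2 of 160 cells. Their summed level ran from 0 to 182 FPKM in old cells and from 0 to 33.4 FPKM in young cells, with at least 1 marker listed in 4 old and 3 young cells. The 5 endothelial markers were listed in no cell.

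A single cell showed few proteasome genes at once, and 46 of the 48 members had a median of 0 FPKM over the cells of each age. The median was 7 of 48 members listed per cell in old cells (quartiles 4 and 10, range 0 to 24) and 7 in young cells (quartiles 4 and 10, range 0 to 19). There were 1 old and 3 young cells that listed no member. The number followed the number of all genes listed in the cell, with Pearson's r = 0.83 and Spearman's rho = 0.81 over 78 old cells and r = 0.81 and rho = 0.82 over 82 young cells, as a description of points that share the depth of their cell. Without the 2 cells farthest from the median gene number, r was 0.81 in each age. With all 160 cells ordered by gene number and cut into 4 sets, the median was 3 members in the 21 old and 3 in the 19 young cells of the lowest set, and 10.5 in the 20 old and 13 in the 20 young cells of the highest.

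**Figure D1:**
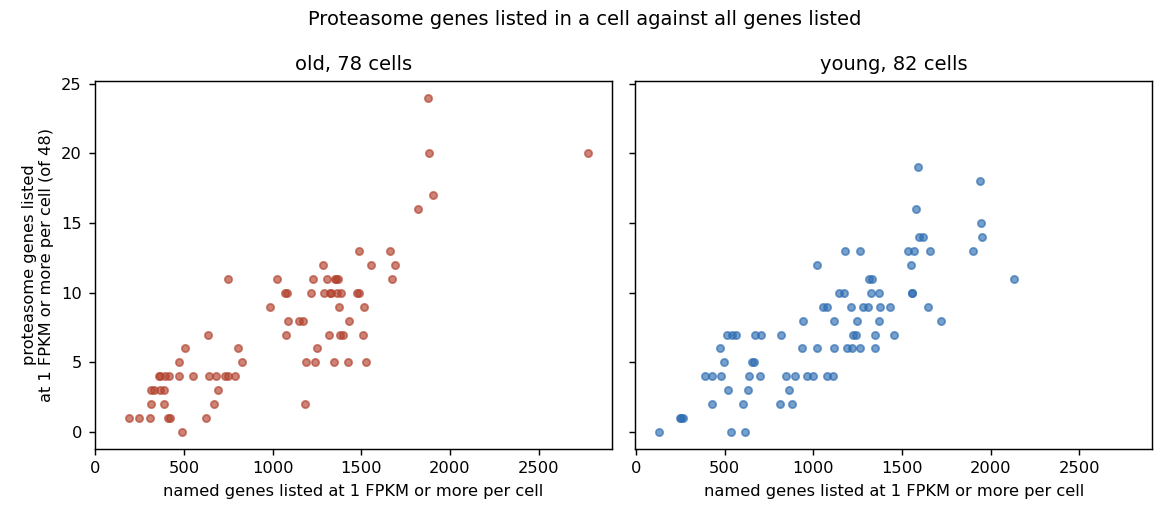
Number of proteasome genes listed at 1 FPKM or more in each cell (vertical axis, of 48) against the number of all named genes listed in that cell (horizontal axis), 1 point per cell, old cells on the left and young cells on the right. In both ages cells with more genes also list more proteasome genes, and the highest counts are 24 in an old and 19 in a young cell.

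Across cells the members listed most often did not appear as a block. For 14 members listed in at least 20% of all cells, the median Spearman's rho over 91 pairs was 0.14 in old cells (range -0.04 to 0.41) and 0.14 in young cells (range -0.12 to 0.43). The 14 were core subunits, the cap ATPase Psmc2 and the activators Psme1, Psme2 and Psme4, so the rest of the cap was not covered. Over all pairs of the 1445 genes listed that often it was 0.16 in old and 0.15 in young cells. These are weak values in sparse data and describe the cells only.

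The 3 immunoproteasome subunits had higher mean log2 levels and were listed in larger shares of old than of young cells. At least 1 of them was listed in 35 of 78 old cells (44.9%, 33.6 to 56.6) and in 24 of 82 young cells (29.3%, 19.7 to 40.4). At least 2 were listed in 9 old cells (11.5%, 5.41 to 20.8) and 3 young cells (3.66%, 0.761 to 10.3). All 3 were listed in 3 old cells and in 0 of 82 young cells (exact upper limit 4.399%). The intervals of the 2 ages overlapped for each of these shares.

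The windows around the starts of these genes and of Psmb5 and Psmb6 are shown because these catalytic genes are described next. No window is shown for Psmb7. The sequences are RefSeq's, on build GRCm38.p6, which is not the build of the expression table, and give the gene's strand from 250 bases before to 50 bases after the annotated start. Capitals mark the interferon gamma activation motif TTCNNNGAA in Psmb8, the CCAAT box in Psmb9, read as ATTGG on the printed strand, and the antioxidant response motif TGACNNNGC in Psmb5 and Psmb6, each searched on both strands. The interferon-stimulated response element, searched as GAAA, any 2 bases and GAAA again, was the other motif, and no printed window held more than 1 match. The window of Psmb10 held none of the 4 motifs.
Psmb8: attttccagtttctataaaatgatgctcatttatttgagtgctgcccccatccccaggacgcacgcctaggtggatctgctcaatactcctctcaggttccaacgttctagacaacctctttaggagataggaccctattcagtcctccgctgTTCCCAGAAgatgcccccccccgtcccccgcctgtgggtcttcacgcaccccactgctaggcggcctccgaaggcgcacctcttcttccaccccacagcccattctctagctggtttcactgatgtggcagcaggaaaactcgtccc
Psmb9: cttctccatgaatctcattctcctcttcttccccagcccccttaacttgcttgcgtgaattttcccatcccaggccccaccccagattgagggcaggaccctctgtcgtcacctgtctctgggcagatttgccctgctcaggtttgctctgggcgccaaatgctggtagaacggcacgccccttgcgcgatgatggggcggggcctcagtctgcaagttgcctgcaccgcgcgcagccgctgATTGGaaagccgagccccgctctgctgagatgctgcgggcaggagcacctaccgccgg
Psmb10: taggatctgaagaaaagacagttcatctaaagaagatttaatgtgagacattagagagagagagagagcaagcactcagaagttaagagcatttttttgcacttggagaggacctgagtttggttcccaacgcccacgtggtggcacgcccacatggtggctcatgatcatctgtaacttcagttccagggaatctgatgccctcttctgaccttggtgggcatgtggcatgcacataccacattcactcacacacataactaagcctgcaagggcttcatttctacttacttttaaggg
Psmb5: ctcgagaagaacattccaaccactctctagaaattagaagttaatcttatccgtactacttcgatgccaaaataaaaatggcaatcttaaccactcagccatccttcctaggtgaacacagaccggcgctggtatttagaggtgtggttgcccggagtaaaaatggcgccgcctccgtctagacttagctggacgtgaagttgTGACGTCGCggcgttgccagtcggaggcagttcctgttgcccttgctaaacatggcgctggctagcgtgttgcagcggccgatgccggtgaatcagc
Psmb6: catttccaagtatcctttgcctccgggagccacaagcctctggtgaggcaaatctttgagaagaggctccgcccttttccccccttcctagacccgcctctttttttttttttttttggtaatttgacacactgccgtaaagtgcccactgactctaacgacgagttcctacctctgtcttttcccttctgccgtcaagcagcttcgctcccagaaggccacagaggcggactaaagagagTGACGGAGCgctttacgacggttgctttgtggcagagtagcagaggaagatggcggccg
The windows lie at chr17:34197945-34198244 on the + strand, chr17:34187281-34187580 on the - strand, chr8:105938343-105938642 on the - strand, chr14:54617946-54618245 on the - strand and chr11:70525107-70525406 on the + strand. The first base of the match lies 97 bases before the start in Psmb8, 8 in Psmb9, 47 in Psmb5 and 9 in Psmb6. The window of Psmb9 shares 275 bases with that of Tap1, the peptide transporter gene that is read in the opposite direction. Windows were found for 40 of the 48 members. TTCNNNGAA stood in 3 of these 40 (7.50%), against 9.55% of 27025 genes with a window, the interferon-stimulated response element in 5 (12.5%, against 3.99%), CCAAT in 14 (35%, against 41.1%) and TGACNNNGC in 6 (15%, against 14%). The 5 members with the interferon-stimulated response element were Psmb3, Psmd4, Psmd9, Psme1 and Psmg4, none of them an immunoproteasome subunit. A match is a run of letters and not a measured binding site.

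Psmb8 encodes the subunit that replaces Psmb5 and cuts after hydrophobic residues. It was listed in 21 of 78 old cells (26.9%, 17.5 to 38.2) and in 10 of 82 young cells (12.2%, 6.01 to 21.3). In listing cells its median was 15.8 FPKM in old and 14.5 FPKM in young cells, and the highest values were 17163 FPKM in an old cell and 136 FPKM in a young cell. More old cells listed Psmb8, and the medians of listing cells lay close together, while the 2 sets of values overlapped. Its mean log2(FPKM + 1) was 1.33 in old and 0.54 in young cells, a difference of 0.80, which was the largest positive one among the 41 measured members. The mean of 235 FPKM in old cells, against 5.05 FPKM in young cells, rested on 1 old cell that held 91.7% of all Psmb8 FPKM, and without it the old mean was 14.9 FPKM.

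Psmb5, the constitutive subunit in that position, went the other way. Its row is shared with the microRNA Mir686, so the value cannot be given to Psmb5 alone. The row was listed in 8 old cells (10.3%, 4.53 to 19.2) and in 16 young cells (19.5%, 11.6 to 29.7), with medians in listing cells of 11.8 FPKM in old and 28 FPKM in young cells. The highest values were 60.4 FPKM in an old and 287 FPKM in a young cell, and the difference of mean log2 was -0.57.

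Psmb9, which replaces the caspase-like Psmb6, was listed in 13 old cells (16.7%, 9.18 to 26.8) and 8 young cells (9.76%, 4.31 to 18.3). Its median in listing cells was lower in old cells, at 22.7 FPKM, against 180 FPKM in young cells, and the highest values were 292 and 397 FPKM. So the share of cells and the level per listing cell pointed in opposite directions, and the difference of mean log2 was 0.17. The log2 ratio of mean FPKM, old over young, was -0.85, so the direction of Psmb9 depended on this choice.

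Psmb6 itself was listed in 22 old cells (28.2%, 18.6 to 39.5) and 20 young cells (24.4%, 15.6 to 35.1), with medians in listing cells of 54.3 FPKM in old and 28.3 FPKM in young cells. Its difference of mean log2 was 0.42 over all cells and -0.30 in the 37 old and 43 young cells within the interquartile range of gene number. Its sign thus turned in that set of cells.

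Psmb10, which replaces the trypsin-like Psmb7, was listed in 13 old cells (16.7%, 9.18 to 26.8) and 9 young cells (11%, 5.14 to 19.8). The medians in listing cells were 23.4 FPKM in old and 10.7 FPKM in young cells, the highest values 412 and 116 FPKM, and the difference of mean log2 was 0.38. Psmb7 was listed in 6 old and 7 young cells, with highest values of 129 and 183 FPKM and a difference of -0.05, which turned to 0.48 within the interquartile range of gene number. Of the 3 constitutive catalytic genes, Psmb5 and Psmb7 were lower and Psmb6 was higher in old cells over all cells.

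**Figure D2:**
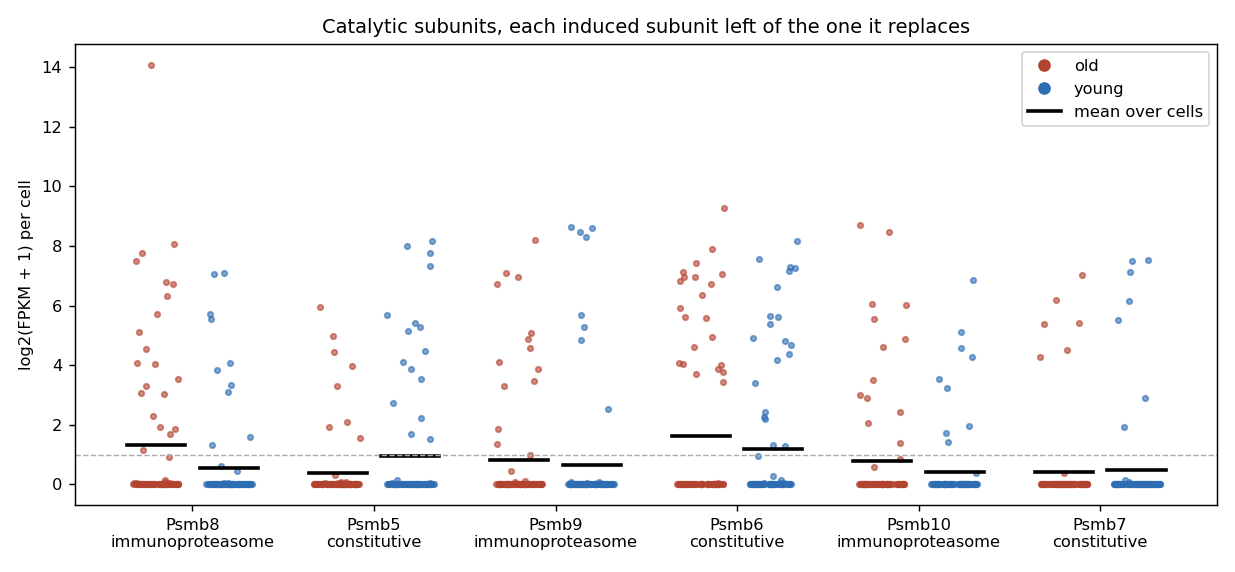
Log2(FPKM + 1) in each cell for the 3 immunoproteasome subunits and, to the right of each, the constitutive subunit it replaces. Points are cells (78 old left of 82 young for each gene), black bars are means over cells and the dashed line is 1 FPKM, the listing level. Most cells sit at 0 for each gene, more old than young cells lie above the line for Psmb8, and 1 old cell stands far above the rest at 17163 FPKM.

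Taking the 6 catalytic genes within a cell, 50 old and 46 young cells listed at least 1. In 27 of the 50 old cells (54%, 39.3 to 68.2) and 19 of the 46 young cells (41.3%, 27 to 56.8) the immunoproteasome subunits held over 50% of the FPKM of the 6. Cells listing both kinds numbered 17 old and 10 young, cells listing immunoproteasome subunits without the constitutive ones 18 and 14, and cells listing the constitutive ones alone 15 and 22. At least 1 constitutive catalytic subunit was listed in 32 old cells (41%, 30.0 to 52.7) and 32 young cells (39%, 28.4 to 50.4). Counted as at least 1, the shares thus lay close together for the constitutive set and further apart for the induced set. At least 2 constitutive ones were listed in 4 old cells (5.13%, 1.41 to 12.6) and 8 young cells (9.76%, 4.31 to 18.3). All 3 were listed in 0 old and 3 young cells, so at these cuts the young shares were larger. The difference between the contrasts of the 2 sets has no replicate check.

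The immunoproteasome genes were also described among cells of similar gene number, and the role of gene number was not tested. In the set within the interquartile range of gene number, at least 1 of the 3 was listed in 51.4% of old and 27.9% of young cells, and the median difference of the 3 genes was 0.73, against 0.38 over all cells. Psmb8 was lower in that set, at 0.57 against 0.80 over all cells. Psmb9 was at 0.85 against 0.17, and Psmb10 at 0.73 against 0.38. In the 4 sets of cells by gene number, from fewest to most genes, cells with any of the 3 numbered 5 of 21, 8 of 17, 11 of 20 and 11 of 20 old cells and 3 of 19, 4 of 23, 8 of 20 and 9 of 20 young cells. Sets 2 and 3 are the cells of the interquartile range, so these counts are not separate from the shares above.

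Most of the genes named next, which act upstream or downstream of the immunoproteasome, had lower mean log2 values in old cells. Irf1, which switches on immunoproteasome genes, was listed in 26 old and 30 young cells with a difference of mean log2 of -0.45. Of 7 antigen processing genes, 6 were measured, and 1 was higher and 5 were lower in old cells, with a median of -0.22. Of all measured genes 48.9% were higher and 51.1% lower. The 6 sorted stroma markers also had 1 higher and 5 lower, with a median of -0.27. Tap1, the peptide transporter beside Psmb9, was the antigen processing gene that was higher (6 old and 4 young cells, difference 0.16). Tap2, its partner subunit, which was not measured, was listed in 4 old and 0 young cells. B2m, the class I light chain, was listed in 78 of 78 old and 82 of 82 young cells with a difference of -0.13, and H2-K1, a class I heavy chain listed jointly with H2-K2, had a difference of -0.70.

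The constitutive core was on balance lower in old cells. Of 16 core subunits 14 were measured, and 10 of them had a lower and 4 a higher mean log2 in old cells, beside 51.1% and 48.9% of all measured genes. Their median difference was -0.33, against -0.0065 over the 7196 measured genes. At least 0.5 lower were 7 of the 14, beside 4.88% of all measured genes, and at least 0.5 higher were 0, beside 3.89%. Many measured genes are listed in fewer cells than the core. Among 3829 genes listed in at least 10% of the cells of either age, 9.17% were at least 0.5 lower and 7.31% higher. That set, chosen after the values were seen, holds 13 of the 16 core subunits. It also keeps many genes listed in fewer cells than most core subunits, so it is not matched to the core. The median share of the 16 was 23.1% of old and 23.8% of young cells. A cell listed a median of 3 core subunits in old cells (quartiles 1 and 5) and 4 in young cells (quartiles 2 and 6). These counts depended on which cells were used: without cells of few genes (those with under 0.5 of the age's median) 3 core subunits, and within the interquartile range of gene number 2, were at least 0.5 lower in old cells, where 4.36% and 6.97% of all measured genes were. Means trimmed by 5% at each end left 4, beside 3.67% of all measured genes.

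The alpha subunits, which form the outer rings and the gate, had a median difference of -0.51 over 7 measured members, with 4 of them at least 0.5 lower in old cells, and the beta subunits one of -0.05 over 7, with 3. Of the 48 members, Psma3 was listed in the most cells. The counts were 33 old cells (42.3%, 31.2 to 54) and 43 young cells (52.4%, 41.1 to 63.6), with cell medians of 0.033 and 1.57 FPKM and highest values of 518 and 471 FPKM. Its level in listing cells hardly differed, at 60.3 FPKM in old and 57.6 FPKM in young cells, and the difference of mean log2 was -0.55. In the cells within the interquartile range of gene number it was 0.070, so the direction of Psma3 did not hold there.

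Psma7 had the lowest alpha difference, -0.62. It was listed in 21 old cells (26.9%, 17.5 to 38.2) and 31 young cells (37.8%, 27.3 to 49.2), with medians in listing cells of 31.8 FPKM in old and 48.4 FPKM in young cells. Psma4 (17 old and 27 young cells, -0.52) and Psma6 (15 and 21 cells, -0.51) lay close to it, and Psma1 was at -0.16. Psma2 and Psma5 were higher in old cells: Psma2 was listed in 23 old cells (29.5%, 19.7 to 40.9) and 19 young cells (23.2%, 14.6 to 33.8), with a difference of 0.39 over all cells and -0.32 within the interquartile range of gene number, and Psma5 in 20 and 18 cells, with a difference of 0.36. Psma8, the alpha subunit of the testis, was listed in 2 old and 0 young cells and was not measured.

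Among the noncatalytic beta subunits, Psmb1 was listed most often, in 32 old cells (41%, 30.0 to 52.7) and 32 young cells (39%, 28.4 to 50.4), with medians in listing cells of 71.3 FPKM in old and 62.2 FPKM in young cells. Its difference of mean log2 was 0.23 over all cells, -0.13 without cells of few genes and -0.10 within the interquartile range, so it held no stable direction. Psmb2 had the lowest beta difference, -0.65. Cells listing Psmb2 numbered 19 old (24.4%, 15.3 to 35.4) and 32 young (39%, 28.4 to 50.4), although its median in listing cells was higher in old cells, at 41.6 FPKM, against 26.8 FPKM in young cells. Psmb4 was at -0.52 and Psmb3 at -0.04. Psmb11, the catalytic subunit of the thymic cortex, was listed in 0 cells, with exact upper limits of 4.62% of old and 4.399% of young cells.

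**Figure D3:**
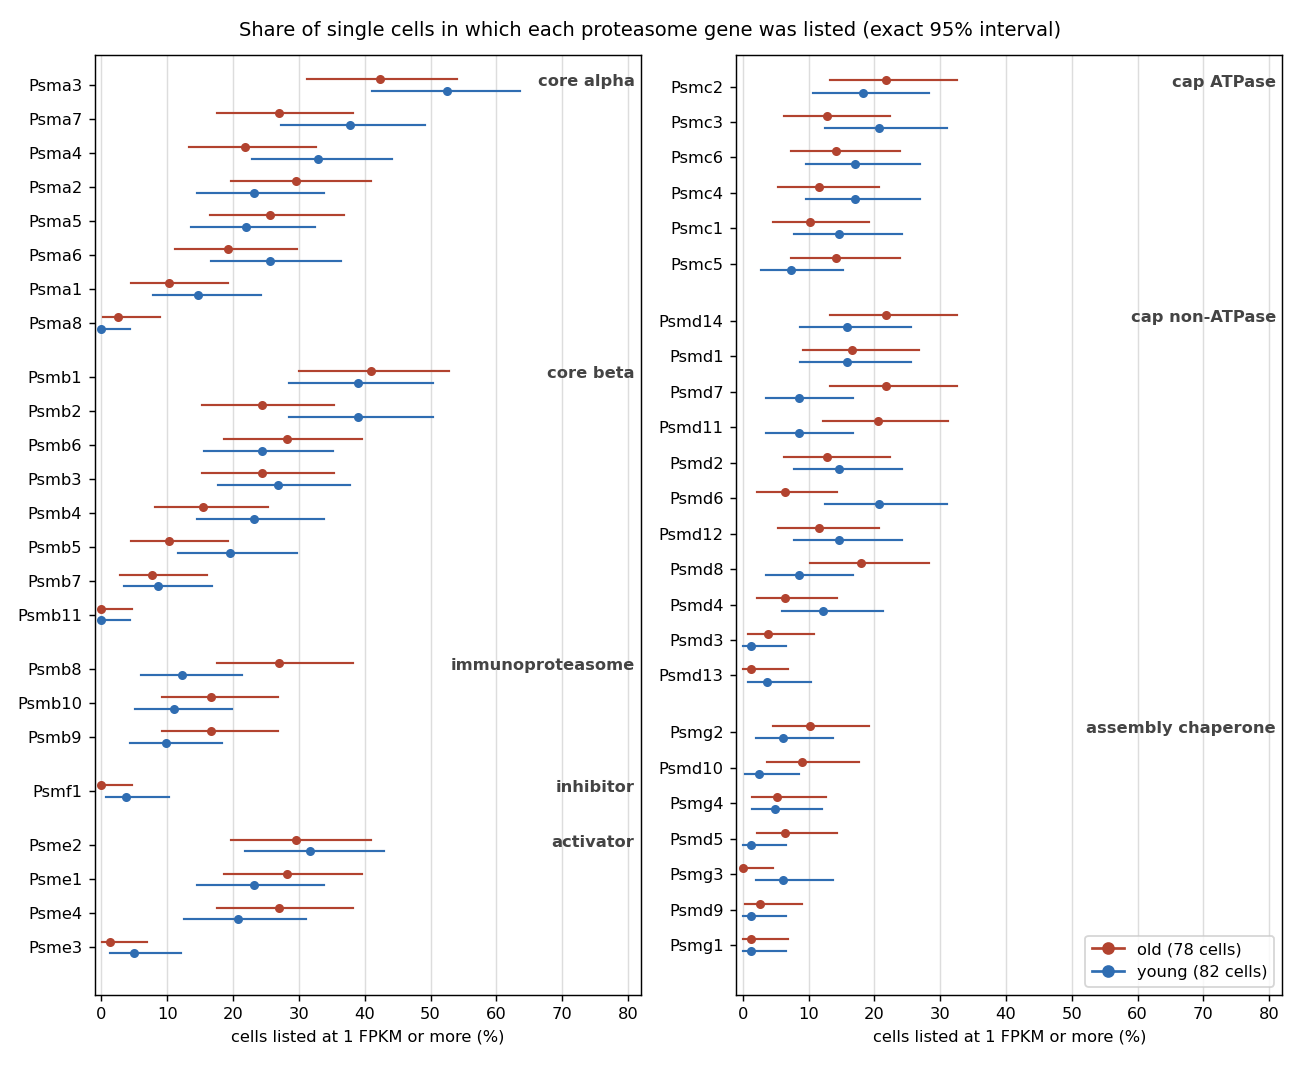
Share of cells in which each of the 48 members was listed at 1 FPKM or more (horizontal axis, percent), by role, with old cells above young cells for each gene and exact 95% intervals that cover counting error only. Psma3 has the largest young share, at 52.4%, and the 3 immunoproteasome subunits lie further right in old than in young cells. The intervals of the 2 ages overlap for each of the 48 members.

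The regulatory cap showed no common direction. Of 17 cap subunits 15 were measured. In old cells 6 had a higher and 9 a lower mean log2, beside 48.9% and 51.1% of all measured genes. The median difference was -0.06. It was 0.25 within the interquartile range of gene number, where the sign turned. A median of 2 cap subunits was listed per cell in each age.

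The 6 ATPases, the ring that unfolds substrates, had a median difference of -0.13. In old cells 2 were higher and 4 lower, beside 48.9% and 51.1% of all measured genes. Psmc2, listed most often, was in 17 old cells (21.8%, 13.2 to 32.6) and 15 young cells (18.3%, 10.6 to 28.4), and its difference was 0.06. Psmc5 was the only cap subunit at least 0.5 higher in old cells. Listing cells numbered 11 old (14.1%, 7.26 to 23.8) and 6 young (7.32%, 2.73 to 15.2), with highest values of 609 and 74.8 FPKM and a difference of 0.54. Psmc3 was lowest at -0.48, in 10 old cells (12.8%, 6.32 to 22.3) and 17 young cells (20.7%, 12.6 to 31.1), with medians in listing cells of 2.86 FPKM in old and 11.4 FPKM in young cells. Psmc1 was at -0.20, Psmc4 at -0.31 and Psmc6 at -0.07, each listed in more young than old cells.

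The other cap subunits included the deubiquitinase Psmd14, which removes ubiquitin chains before degradation. It was listed in 17 old cells (21.8%, 13.2 to 32.6) and 13 young cells (15.9%, 8.72 to 25.6), with medians in listing cells of 36.3 FPKM in old and 32.3 FPKM in young cells and a difference of 0.44. Its binding partner in the lid, Psmd7, was listed in 17 old and 7 young cells with a difference of 0.44, and Psmd11, a scaffold of the lid, in 16 old cells (20.5%, 12.2 to 31.2) and 7 young cells (8.54%, 3.50 to 16.8) with a difference of 0.45. Psmd8, also of the lid, was in 14 old and 7 young cells, with a difference of 0.37. These 4 lid genes, set side by side after their values were seen, had larger shares in old cells. For Psmd7 the level went the other way, with a median in listing cells of 9.10 FPKM in old and 69 FPKM in young cells and a log2 ratio of mean FPKM of -2.31, and 1 young cell held 79.6% of its FPKM.

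Psmd6, another lid subunit, had the lowest difference of all members, -0.70. It was listed in 5 old cells (6.41%, 2.11 to 14.3) and 17 young cells (20.7%, 12.6 to 31.1), yet its median in the few listing old cells was 103 FPKM, against 49.2 FPKM in young cells. Psmd12, also of the lid, was at -0.06. The ubiquitin receptor Psmd4 was listed in 5 old and 10 young cells with a difference of -0.35. The base subunits Psmd1 (13 old and 13 young cells, -0.03) and Psmd2 (10 and 12 cells, -0.18) lay near 0, and each was summed from 2 rows of the table. Psmd3 and Psmd13 were listed in 4 cells each and were not measured.

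**Figure D4:**
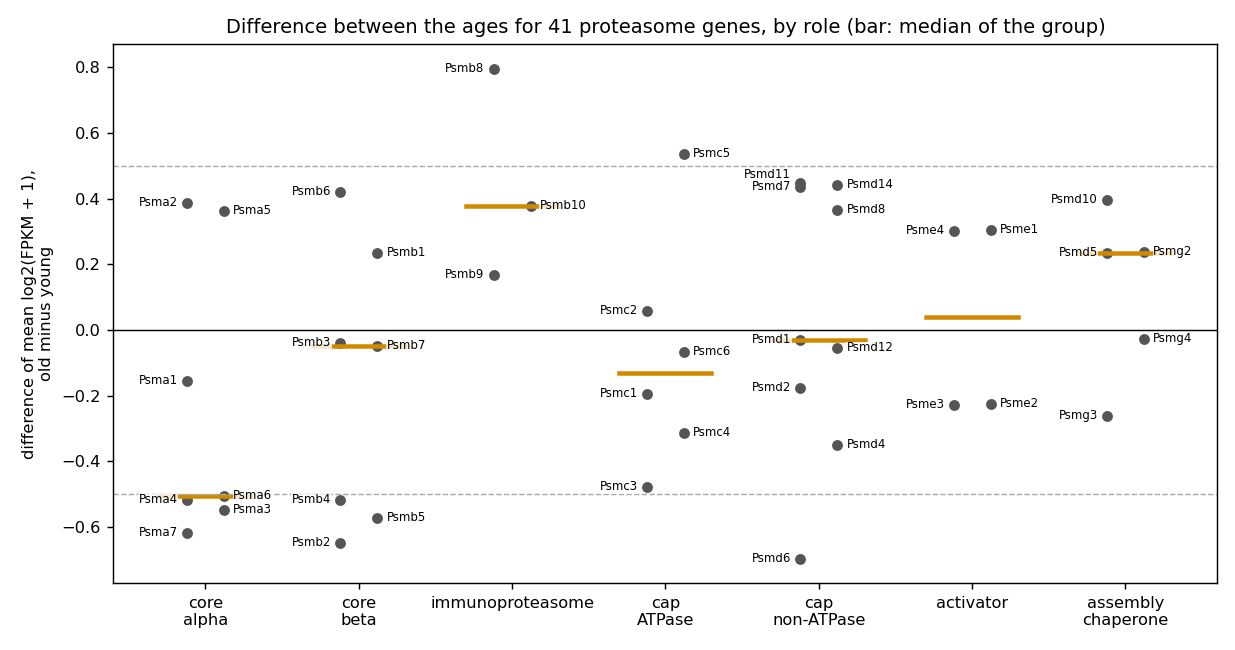
Difference of mean log2(FPKM + 1), old minus young, for the 41 measured members by role (points, vertical axis), with the median of each role (bars) and the size of 0.5 used for counts (dashed lines). The medians run from -0.51 for core alpha to 0.38 for immunoproteasome subunits, Psmb8 is highest at 0.80 and Psmd6 lowest at -0.70.

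The activators are alternative caps. Psme1 and Psme2 form an interferon-induced ring, and they were listed in 22 old cells (28.2%, 18.6 to 39.5) and 19 young cells (23.2%, 14.6 to 33.8) for Psme1 and in 23 old cells (29.5%, 19.7 to 40.9) and 26 young cells (31.7%, 21.9 to 42.9) for Psme2. Their differences of mean log2 had opposite signs, 0.30 and -0.23. Psme2 was at 0.03 within the interquartile range of gene number and at 0.04 without cells of few genes, and Psme1 at 0.95 within that range. Mouse RefSeq also lists Psme2b, a copy of Psme2, and how reads shared by copies were divided is not given in the sources used here. The same limit holds for Psma5, Psmb5, Psmb6 and Psmb7, which have annotated pseudogenes.

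Psme4, a nuclear activator, was listed in 21 old cells (26.9%, 17.5 to 38.2) and 17 young cells (20.7%, 12.6 to 31.1), with medians in listing cells of 12.7 FPKM in old and 8.63 FPKM in young cells and a difference of 0.30. Its log2 ratio of mean FPKM was -0.10, so its direction changed with that choice. Psme3, the other nuclear activator, was listed in 1 old and 4 young cells, with highest values of 1.30 and 96.4 FPKM and a difference of -0.23. The inhibitor Psmf1 was listed in 0 old cells (exact upper limit 4.62%) and in 3 young cells (3.66%), and was not measured.

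Assembly chaperones were listed in few cells. The largest share was that of Psmg2, which helps form the alpha ring, in 8 old cells (10.3%, 4.53 to 19.2) and 5 young cells (6.10%, 2.01 to 13.7), with a difference of 0.24. Psmd10, a chaperone of the cap ATPases also known as gankyrin, was listed in 7 old cells (8.97%, 3.69 to 17.6) and 2 young cells (2.44%, 0.297 to 8.53), with highest values of 190 and 7.30 FPKM and a difference of 0.40. Psmd10 lies on the X chromosome, and Xist was listed in old cells only. Psmg3 was lowest at -0.26, in 0 old and 5 young cells, and 1 young cell held 79.2% of its FPKM. Psmd5, a chaperone of the cap base, was in 5 old and 1 young cells (0.23) and Psmg4 in 4 and 4 (-0.03), while Psmd9 (2 and 1 cells) and Psmg1 (1 and 1) were not measured. The 5 measured chaperones had a median difference of 0.23. Of these, Psmd10 and Psmg2 reached a mean of 1 FPKM in old cells only, and Psmg3 in young cells only. Over all 7 chaperones, with no filter on low values, the median was 0.012, so the chaperones as a group showed no clear direction.

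Counted over all roles, 2 of the 41 measured members (Psmb8 and Psmc5) were at least 0.5 higher in old cells and 8 at least 0.5 lower, beside the 3.89% and 4.88% of all measured genes. The same count was made over genes listed in at least 10% of the cells of either age, a choice made after the values were seen. There 5.71% of 35 members were at least 0.5 higher and 22.9% at least 0.5 lower, against 7.31% and 9.17% of 3829 genes. Among cells within the interquartile range of gene number, 9 members were at least 0.5 higher and 3 at least 0.5 lower in old cells, against 8.48% and 6.97% of all measured genes, so the balance of higher and lower members turned with the set of cells.

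Other genes of the pathway were taken from lists made with earlier results known. Among 7 related subunits and partners, Shfm1, the small lid subunit also called Sem1, was listed in 56.4% of old and 52.4% of young cells, with a difference of 0.93, the only one of the 7 past 0.5. The assembly factor Pomp was listed in 21 old and 30 young cells (-0.27), and the ubiquitin receptor Adrm1 in 4 and 9 (-0.32). Among regulators, Nfe2l2, the antioxidant transcription factor, was in 11 old and 19 young cells (-0.52), and Nfe2l1, which raises proteasome genes when the protease is blocked and is listed jointly with Gm11517, in 6 and 13 (-0.06). Of 5 ubiquitin genes, Ubb, a polyubiquitin gene, was in 83.3% of old and 87.8% of young cells (-0.68), and Uba1, the X-linked enzyme that activates ubiquitin, in 17 old and 8 young cells (0.59). The 6 measured shuttle and segregase genes lay between -0.19 for Rad23b and 0.20 for Ufd1l, and Vcp, the segregase, was listed in 29 old and 30 young cells.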

How the data were processed

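RNA of single bone marrow stromal cells was measured in 78 old and 82 young cells, amplified with SMARTer chemistry per the labels' protocols. The FPKM values were deposited by the authors in 1 table of 31199 rows, and Cufflinks 2.1.1 and the mouse build mm9 are named in the submitters' processing notes. Tool settings, read depth and the way shared reads were divided are not stated in these sources. Per the labels' protocols, wells were inspected under a microscope and those without exactly 1 intact cell were dropped. No doublet caller was run.

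From these values, 7751 rows with no gene name were left out and rows of 1 name were summed (Psmd1 and Psmd2 among the members). Shares of cells at 1 FPKM and differences of mean log2(FPKM + 1) were computed with pandas 2.3.3 and scipy 1.17.1. The code for the differences, but not for the shares, was run on simulated data. Only genes listed in many young cells were changed there. Nearly all members were listed in fewer cells than those genes, so the simulation does not cover them. FPKM cannot be thinned to 1 depth, so sets of cells by gene number were used. Members and gene lists were chosen with earlier results of these data known. Named members were fixed by a rule: the catalytic genes, activators and inhibitor, and in each other role the member listed most often and those with the highest and lowest difference. Other members that are named were picked after their values were seen. Alternatives changed the pseudocount, the listing level, the summary over cells, the scaling, the filter, the summing of repeated rows and the set of cells. A pair of them, without cells of high summed FPKM and over genes listed in 10% of cells, was chosen after seeing the data. One gene of the regulator list is not reported here.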

Additional observations from a re-analysis of the deposited data

How the results depend on the processing

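No paired analysis was possible because the replicate numbers only name cells and no test was made. The median difference of core subunits stayed negative (-0.56 to -0.10) and that of immunoproteasome subunits positive (0.19 to 1.96) in each of 11 alternatives. Not all of these could change the result. Taking the highest row per gene could move neither median, since no gene of these groups was summed from repeated rows. Dropping the filter, or using genes listed in 10% of cells, could not move the immunoproteasome median, since all 3 genes pass both filters. By the ratio of mean FPKM, 14 of 41 members were at least 0.5 higher and 16 lower in old cells, where 37.6% and 36.5% of all measured genes were, and the medians were 1.96 for the immunoproteasome, -0.25 for the activators and 0.94 for the chaperones. A pseudocount of 0.1 gave 11 members higher and 11 lower (all genes 11.2% and 13.2%), and one of 10 gave 0 higher and 0 lower (core 0; all genes 0.945% and 0.848%), since a larger pseudocount shrinks each difference. Trimmed means gave 3 higher and 5 lower (core 4), beside 4.00% and 3.67% of all genes. Without cells of few genes there were 8 higher and 5 lower (core 3; all genes 6.40% and 4.36%), and within the interquartile range of gene number 9 higher and 3 lower (core 2; all genes 8.48% and 6.97%), with medians of 0.73 for the immunoproteasome and 0.25 for the cap, and Psma3 turned to 0.070; the cause was not tested. Counting any FPKM above 0, the median was 10.5 members in old and 11 in young cells, and 55.1% of old and 41.5% of young cells had an immunoproteasome subunit. Over genes listed in 10% of cells, a set chosen after the data were seen, the activators had a median of 0.30. Of 225 differences of members named by the rule under the alternatives, 167 moved by under 0.25. The 167 include all values for the highest row per gene, which could not move, since none of these members was summed from repeated rows. Precision is limited by 78 and 82 cells and an unknown read depth.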

Other observations

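In 13 of the 48 members over 50% of the summed FPKM came from 1 of the 160 cells. The highest value was that of Psmd11, with 29103 FPKM in 1 old cell and 14965 FPKM in 1 young cell, although its median in listing cells was 6.49 FPKM in old and 7.18 FPKM in young cells. Psma4 reached 26839 FPKM in a young cell, and Psmb8 17163 FPKM in an old cell. In 7 of the 41 measured members the log2 ratio of mean FPKM and the difference of mean log2 had opposite signs.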
